A study of Oryza sativa Japonica Group with 8 samples.

Results

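The probes described here were those that a rice 44k oligonucleotide array carries for microRNA (miRNA) precursors, the transcripts from which mature miRNAs are cut. The array held 510 such probes among 42477 non-control probes. They covered 170 hairpins of 45 families, and each hairpin had 3 probes, named 5'seq, 3'seq and Mature in the array design. The files do not say which bases each kind covers, and probe sequences were not used here. A probe was kept if Feature Extraction marked it as well above background on 4 or more of 8 arrays, which left 211 probes from 107 hairpins and 35 families among 33116 probes kept on the whole array. The members were thus chosen by their signal on these arrays, and detection is a description with no test.

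Leaf blades of rice (Oryza sativa Japonica Group, cultivar Hinohikari) were taken at the five-leaf stage from the fifth leaf. The treated group received 10 μM linalool, a volatile monoterpene alcohol that plants emit, for 1 day (24 h) at 25 ºC. The control is called mock in the titles and untreated in the source names, and is called mock here. Each group held 4 arrays, each from RNA pooled from at least 3 plants, which the design text calls biological replicates. All plants came from 1 cultivar with no transgene named in the labels. In blades, fewer cells of a type and less RNA per cell cannot be told apart.

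Plant miRNA genes are transcribed by RNA polymerase II into capped, polyadenylated precursors that fold into a hairpin. DICER-LIKE1 cuts the mature strand from the stem, and ARGONAUTE1 carries it to target mRNAs, many of which encode transcription factors. The labelling reaction used here copies polyadenylated RNA, so mature miRNA was not measured. A signal of any of the 3 probe kinds is taken here as precursor transcript. Whether other transcripts bind these probes was not tested. In the array design 68 of the kept probes carry the name of a locus transcript and 20 another accession. A fall in a precursor signal does not separate less transcription from faster processing.

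Levels are given as log2 of the processed signal minus the 75th percentile of the same array, so that 0 is the 75th percentile and a difference of 1 is 2-fold. That percentile was 849.6 to 999.6 on the mock and 1092 to 1605 on the linalool arrays, and 73.3% to 77.3% of spots carried the mark for signal above background. The 4 mock arrays shared 1 slide and the 4 linalool arrays a second one, so an effect of the slide and one of linalool cannot be told apart. The median local background was 26 to 28 on the mock and 19 on each linalool array. Arrays correlated at 0.975 to 0.996 within groups and at 0.866 to 0.905 between them. The leaf genes PsaH and RCA lay at the 99.5th and 99.9th percentile of level.

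The precursor probes were dim, and since signal also depends on the probe itself, brightness is given to show how well a probe was measured and not as a transcript level. The median processed signal of the 211 kept probes was 26.4 to 28.4 on the mock and 25.6 to 30.0 on the linalool arrays before scaling, near the local background in size. Of the 510 probes, 213 were above background on no array and 86 on 1 to 3. Of those kept, 26 were above background on 4 arrays, 39 on 5 to 7 and 146 on all 8. When all tested probes were split into 4 equal bins of mean level, 161 of the 211 lay in the lowest bin, below -3.78, and only miR419, miR168a, miR441b and miR408 had a probe in the highest bin. The 26 probes on exactly 4 arrays had a median difference of -0.29, and the 13 left out at exactly 3 arrays had one of -0.73.

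After linalool, far more precursor probes were lower than higher. With the fit across all 33116 probes (limma, Benjamini-Hochberg adjusted p below 0.05), 142 of 211 fell and 14 rose, and 55 did not pass. Of all tested probes 38.9% fell, 28.4% rose and 67.3% passed in either direction. By at least 2-fold, 90 precursor probes fell and 8 rose, where the shares over all probes were 18.3% and 11.5%, or 29.8% in either direction. The groups did not overlap for 127 lower and 11 higher precursor probes, against 36.6% and 26.7% of all probes. The median difference was -0.82 on the log2 scale for the precursor probes and -0.12 for all tested probes. A probe kept through 1 group alone was selected for a difference: 7 were above background on all mock and no linalool arrays, and 8 on all linalool and no mock arrays. All of the 7 fell. Of the 8, 6 rose and 2 did not pass, so 6 of the 14 rises were such probes. Among the 146 probes above background on every array, 109 fell and 3 rose, 34 did not pass, and the median was -0.88, where 38.9% of all such probes fell, 27.7% rose and 66.7% passed in either direction.

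The size of these falls has to be read beside spots with no signal. The 213 precursor probes above background on no array had a median difference of -0.72 (quartiles -0.91 and -0.60), and the 6682 other probes above background on no array had one of -0.71. Of the 142 lower probes, 96 lay below that lower quartile of -0.91 and 46 above it. When arrays were scaled to spike-in controls, the median of all tested probes moved to 0.53, that of the undetected precursor probes to -0.08 and that of the kept precursor probes to -0.18. Under that scaling 83 precursor probes were lower and 48 higher, and 15.9% of all probes were lower and 53.3% higher. Lower calls also outnumbered higher ones with quantile normalization (117 and 28), median scaling (130 and 20) and the series matrix values (134 and 17). Of all tested probes 33.1% were lower and 33.2% higher with quantile normalization. Those shares were 32.2% and 33.2% with median scaling, and 35.9% and 30.8% with the series matrix values. The same 83 probes, 39.3% of the 211, were lower under each of 5 scalings (75th percentile, median, series matrix, quantile and spike-in), against 15.8% of all tested probes. All 14 rises, 6.6% of the 211, also held under these 5 scalings, where 28.4% of all tested probes were higher under each. All of these scalings but quantile normalization differ only by a constant per array. The median of all tested probes was lowest with the 75th percentile (-0.12) and highest with spike-in scaling (0.53). Rises called with the former and falls called with the latter were thus nearly bound to hold under the rest, so holding under all 5 adds little. A background model (normexp) with an offset of 50, which exceeds the median signal of these probes, was also run. As planned, it left 14 of the 142 falls and 0 of the 14 rises by limma, with 14 lower and 0 higher also at an unadjusted p below 0.05. Of all tested probes 14.0% were lower and 14.4% higher under it. On linalool replicate 1 this planned fit estimated a mean background of -543.8, against -4.26 without 5 spots of aberrant local background. It therefore cannot decide on these probes. When the model was fitted without such spots, a choice made after seeing the data, all 142 falls passed and again 0 rises, also at an unadjusted p below 0.05. There 47.9% of all tested probes were lower and 22.9% higher. The offset was added before scaling to the 75th percentile, which in the processed signal was higher on the linalool arrays. Dim probes are thereby drawn lower whatever their signal, so this fit cannot decide on their falls or rises.

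Level was set beside difference over the whole array. In the lowest bin 103 of 161 precursor probes fell and 13 rose, where 45.5% of all probes of that bin fell and 22.8% rose. In the next bin 26 of 35 fell and 1 rose, against 39% and 27.5%. Of the 10 precursor probes in the third bin 9 fell and none rose, against 33.4% and 32.5%, and of the 5 in the highest bin 4 fell and none rose, against 37.9% and 30.7%. In the lowest bin with signal on all 8 arrays, 70 of 96 precursor probes fell and 2 rose, against 49.3% and 16.5%. The share of falls was thus above that of all probes in each bin, and the 14 rises lay in the 2 lowest bins. Within bins the precursor probes were still dimmer than all probes. Their median level was -5.94 against -5.28 in the lowest bin and -3.04 against -2.51 in the next. The bins therefore do not fully match signal and cannot decide how far low signal accounts for the falls. The median difference of all tested probes itself ran from -0.37 in the lowest to -0.04 in the highest bin. No test of that difference was made.

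The brightest precursor whose signal changed was miR168a on chromosome 2. Its miRNA targets ARGONAUTE1 mRNA. The 3'seq probe read 2.90, 2.96, 2.52 and 2.76 on mock and 1.68, 1.56, 1.28 and 1.28 on linalool replicates 1 to 4. It was lower on every linalool array, with a difference of -1.34 ± 0.14 (SE), adjusted p = 5.40e-05. Its 5'seq probe gave 2.09, 2.16, 1.78 and 1.99 on mock against 1.36, 1.08, 0.77 and 0.77 on linalool arrays (-1.01 ± 0.15 (SE), adjusted p = 5.17e-04), also without overlap, but with spike-in scaling its difference of -0.37 did not pass (adjusted p = 0.07). The Mature probe of the same hairpin, at -2.64 ± 0.18 on mock and -2.18 ± 0.49 on linalool arrays (SD, n = 4 each), did not pass (0.46, adjusted p = 0.109). With spike-in scaling it passed as higher (1.10, adjusted p = 2.53e-04). Both tested probes of miR168b fell, with differences of -1.74 for 5'seq and -1.48 for Mature.

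Other bright precursors also fell. The largest fall among the 211 was that of miR441a 3'seq on chromosome 3, which read 1.71, 1.37, 0.29 and 1.23 on mock and -2.52, -3.00, -3.08 and -3.07 on linalool replicates (-4.07 ± 0.29 (SE), adjusted p = 1.01e-05). Mock replicate 3 was the lowest of its group and still lay above every linalool array. The 3 other tested miR441 probes fell too, by 0.68 to 1.86 on the log2 scale, that of miR441c 3'seq not with spike-in scaling. For miR408 on chromosome 1, a miRNA known to target copper proteins, the 3'seq probe stood at 1.57 ± 0.15 on mock and 0.59 ± 0.28 on linalool arrays (SD, n = 4 each) and fell (-0.98 ± 0.15 (SE), adjusted p = 5.19e-04); its fall did not pass with spike-in scaling. The brightest precursor probe of all, miR419 5'seq on chromosome 12, was at 2.82 ± 0.05 on mock and 2.70 ± 0.02 on linalool arrays (SD, n = 4 each). Its difference of -0.12 did not pass (adjusted p = 0.142), and its sign turned with median scaling (0.013) and with spike-in scaling (0.52). With the latter it passed as higher (adjusted p = 0.0124). The Mature probe of miR529 was likewise bright, at -0.85 ± 0.07 on mock and -0.78 ± 0.05 on linalool arrays (SD, n = 4 each), with a difference of 0.07 that did not pass. It passed as higher with spike-in scaling (0.71, adjusted p = 0.00181).

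Rises came from 9 hairpins. None of the 14 passed under either fit of the background model. The planned fit put the mean background of linalool replicate 1 at -543.8 (-4.26 without aberrant spots), and in the other the offset draws dim probes lower. Neither fit can settle changes of dim probes. The largest was that of miR393b on chromosome 4, whose miRNA targets the TIR1 and AFB auxin receptors. Its 5'seq probe read -7.65, -8.31, -7.24 and -7.65 on mock arrays, above background on none, and -4.53, -4.89, -5.21 and -4.85 on linalool arrays. The linalool level was at least 5.50-fold higher (limma adjusted p = 1.82e-05), where such a bound sets the bright group against the lowest signal called above background or the probe's own. The 3'seq probe read -7.95, -7.48, -7.18 and -7.57 on mock and -5.14, -5.30, -5.68 and -5.46 on linalool replicates (2.15 ± 0.18 (SE), adjusted p = 2.05e-05), and no mock array reached any linalool array. The other hairpin of the family, miR393 on chromosome 1, did not rise: its 3'seq probe fell, at -4.64 ± 0.07 on mock and -6.24 ± 0.28 on linalool arrays (SD, n = 4 each) (-1.60 ± 0.14 (SE), adjusted p = 2.48e-05), and its 5'seq probe did not pass (-0.18, adjusted p = 0.0663).

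The miR398 family is known to target copper/zinc superoxide dismutases. The 5'seq probe of miR398b, on chromosome 7, was above background on no mock array, with -7.97, -7.01, -7.09 and -7.88, and on every linalool array, with -4.62, -5.03, -5.97 and -5.54. It was at least 3.99-fold higher (limma adjusted p = 5.54e-04). The remaining probes of this hairpin did not share the rise. Its 3'seq probe did not pass (-0.45, adjusted p = 0.182), and the Mature probe passed as lower (-0.23 ± 0.08 (SE), adjusted p = 0.036) but as higher with spike-in scaling (0.41, adjusted p = 0.0259). It did not pass as lower with quantile normalization, median scaling or the series matrix values either.

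The miR399 family, which targets the phosphate regulator PHO2 and is known to rise on phosphate shortage, did not move as a whole. Of its 28 tested probes from 11 hairpins, 8 rose and 11 fell, while 9 did not pass. Among the 17 above background on all 8 arrays 1 rose and 8 fell, so 7 of the 8 rises lacked signal on some array. All 7 tested 5'seq and 3'seq probes of miR399a, miR399c, miR399i and miR399k rose, with a median difference of 1.91. Of their tested Mature probes, that of miR399a rose, that of miR399i did not pass (0.20) and that of miR399k fell (-1.79). All 10 tested probes of miR399e, miR399f, miR399g and miR399h fell, with a median of -1.24, although miR399e 3'seq and miR399f 5'seq did not pass with spike-in scaling. None of the 8 tested probes of miR399b, miR399d and miR399j passed. The hairpins are sorted here by these calls, so agreement within each set was fixed by the sorting. The family median was -0.07 and turned to 0.25 with quantile normalization and to 0.57 with spike-in scaling, where 13 probes were higher and 9 lower.

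Among the rising hairpins, miR399a 3'seq on chromosome 1 read -8.79, -8.05, -8.98 and -7.72 on mock arrays, above background on none. On linalool arrays it read -5.29, -6.05, -6.40 and -6.54, at least 2.61-fold higher (limma adjusted p = 5.44e-04). Linalool replicate 1 was the highest of its group, and the Mature probe rose as well, at least 1.38-fold with overlap between groups. For miR399i on chromosome 2, the 5'seq probe read -8.87, -6.82, -7.65 and -7.30 on mock and -4.89, -5.67, -5.30 and -5.52 on linalool replicates (2.32 ± 0.41 (SE), adjusted p = 0.00114), and 3'seq rose by 0.55. On chromosome 5, miR399c 3'seq stood at -6.54 ± 0.64 on mock and -4.64 ± 0.50 on linalool arrays (SD, n = 4 each), a difference of 1.91 ± 0.35 (SE), adjusted p = 0.00155. Groups were apart for miR399i 5'seq and miR399c 3'seq and overlapped for miR399i 3'seq.

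The hairpin miR399k on chromosome 5 had calls in both directions. Neither its 5'seq nor its 3'seq probe was above background on a mock array, and both were on every linalool array. The 5'seq probe read -8.69, -6.78, -9.04 and -8.40 against -6.10, -6.01, -6.44 and -6.29, at least 2.27-fold higher (limma adjusted p = 0.00371), and 3'seq was at least 2.30-fold higher (limma adjusted p = 0.00133). Its Mature probe fell instead, from -5.12, -5.39, -5.95 and -5.76 on mock to -7.01, -7.48, -7.29 and -7.59 on linalool replicates (-1.79 ± 0.20 (SE), adjusted p = 9.89e-05). The other hairpin with calls in both directions was miR398b, whose lower call did not hold under other scalings.

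The falling miR399 hairpins were led by their Mature probes, which read nearly alike on each array. For miR399f the values were -0.18, -0.52, -0.53 and -0.64 on mock and -0.96, -2.13, -1.93 and -2.27 on linalool replicates (-1.35 ± 0.27 (SE), adjusted p = 0.00246). The 4 Mature probes had differences from -1.35 to -1.24, and in each the linalool array nearest to the mock arrays was replicate 1. How far these 4 probes share sequence was not tested. Their hairpins' 5'seq and 3'seq probes fell by 0.97 to 1.35 on the log2 scale. Among the probes that did not pass was the brightest 3'seq probe, that of miR399d on chromosome 6, with -2.05, -1.14, -2.09 and -1.37 on mock and -1.11, -1.36, -2.12 and -2.22 on linalool replicates, wholly overlapping (-0.04, 95% interval -0.78 to 0.69).

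Precursors of miR169, which targets NF-YA subunits of the CCAAT-binding factor, made up the largest tested family and mostly fell. Of 34 tested probes from 15 hairpins, 31 fell and 1 rose, 2 did not pass, and the median difference was -1.38. With spike-in scaling 23 were lower and 3 higher, and 23 were lower under all 5 scalings. All 18 probes of the 6 hairpins miR169h to miR169m fell by 0.95 to 1.62 on the log2 scale without overlap, those of miR169i 3'seq and miR169k 3'seq not with spike-in scaling. As an example, miR169l 3'seq on chromosome 8 read -2.61, -2.90, -2.40 and -2.88 on mock and -3.74, -4.38, -4.49 and -4.34 on linalool replicates (-1.54 ± 0.19 (SE), adjusted p = 1.47e-04). Mock replicate 3 was the highest mock array for 23 of the 34 probes. The hairpin miR169g on chromosome 4 fell further, with differences of -2.07 for 5'seq and -1.91 for 3'seq.

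Some miR169 hairpins differed between their ends. On chromosome 2, miR169e 3'seq read -6.17, -5.44, -6.32 and -5.40 on mock and -9.03, -9.12, -9.55 and -9.09 on linalool arrays, where it was above background on none, at least 5.38-fold lower (limma adjusted p = 9.38e-06). The 5'seq probe of that hairpin, above background on every array, fell by 0.53 on the log2 scale but turned to 0.11 with spike-in scaling and did not pass. The 1 rise was miR169a 5'seq on chromosome 1, which went from -5.11, -4.79, -4.51 and -4.97 to -4.04, -4.48, -4.28 and -4.00 (0.65 ± 0.16 (SE), adjusted p = 0.00681) without overlap. Its 3'seq probe did not pass (0.08, adjusted p = 0.633).

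The miR166 family restricts class III HD-ZIP factors, which set leaf polarity. Of 23 tested probes 19 fell, none rose and 4 did not pass, and all 10 Mature probes were among the falls (-2.12 to -1.08, with no overlap). Under all 5 scalings 16 probes were lower, although 4 others were higher with spike-in scaling. The 3'seq probe of miR166a on chromosome 10 read -4.97, -5.16, -5.44 and -5.30 on mock and -7.63, -7.24, -8.21 and -8.68 on linalool replicates (-2.72 ± 0.29 (SE), adjusted p = 7.26e-05). Of the probes above background on every mock and no linalool array, miR166e Mature on chromosome 3 was at least 4.34-fold lower, miR166h Mature at least 3.18-fold, and miR166b 3'seq at least 2.85-fold (limma adjusted p = 5.17e-05, 4.58e-05 and 0.00209). The same held for miR166m 3'seq, at least 4.26-fold lower (limma adjusted p = 5.84e-06), whereas miR166m 5'seq did not pass (0.27). The brightest miR166 probe, miR166n 3'seq, also did not pass, with -1.97, -1.96, -1.80 and -2.33 on mock and -1.15, -2.06, -1.59 and -1.52 on linalool replicates.

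Precursors of the miR160 family, regulators of auxin response factors (ARFs), fell for 14 of 15 tested probes, but by little. Their differences ran from -1.37 to -0.38 with a median of -0.80, close to the -0.72 of precursor probes without signal, and only 3 were lower under all 5 scalings. The clearest was miR160b 5'seq on chromosome 6, with -2.18, -2.41, -2.40 and -2.46 on mock and -3.27, -3.94, -3.85 and -3.85 on linalool replicates (-1.37 ± 0.16 (SE), adjusted p = 1.03e-04). Of miR167, which also targets ARFs, all 4 tested probes fell (median -0.77), and none of the 4 passed with spike-in scaling.

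In the miR164 family, which targets NAC factors, 7 of 8 tested probes fell and 1 rose, and with spike-in scaling 4 were lower. The 5'seq probe of miR164d on chromosome 2 read -1.23, -0.91, -1.36 and -1.17 on mock and -3.00, -3.23, -3.39 and -3.37 on linalool replicates (-2.08 ± 0.13 (SE), adjusted p = 4.72e-06), and its 3'seq probe fell by 0.37 but turned to 0.27 with spike-in scaling and did not pass. The rise, of miR164a 3'seq on chromosome 7, was small but apart: -4.18, -4.19, -4.17 and -4.37 on mock against -3.80, -3.83, -3.89 and -3.76 on linalool replicates (0.40 ± 0.08 (SE), adjusted p = 0.00195).

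The miR156 family, which restrains SPL factors of the juvenile phase, was divided, with 5 of 12 tested probes lower, none higher and 7 that did not pass. Its median of -0.22 turned to 0.04 with quantile normalization and to 0.42 with spike-in scaling, under which 7 probes were higher and 4 lower. The brightest, miR156d 3'seq on chromosome 2, read 0.23, 0.30, -0.18 and 0.12 on mock and -1.07, -1.14, -1.42 and -1.47 on linalool replicates (-1.39 ± 0.14 (SE), adjusted p = 5.01e-05) without overlap. On chromosome 1, miR156b 3'seq was above background on all mock and no linalool arrays and at least 4.82-fold lower (limma adjusted p = 1.47e-04). Its neighbour miR156c, whose probes carry the same locus name in the array design, had a 5'seq probe above background on linalool arrays alone, but the groups overlapped and it did not pass (0.37, adjusted p = 0.168).

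The related families miR159 and miR319 target GAMYB and TCP factors. All 5 tested miR319 probes fell, by 0.66 to 1.14 on the log2 scale, and 2 of them were lower under all 5 scalings. Of 5 tested miR159 probes 3 fell and 1 rose, and with spike-in scaling 1 was lower and 1 higher. The fall of miR159d 3'seq on chromosome 1 was the second largest of all precursor probes, from -4.94, -4.68, -5.55 and -4.62 on mock to -8.44, -8.48, -8.98 and -8.48 on linalool arrays, where it was above background on none. It was at least 9.94-fold lower (limma adjusted p = 4.72e-06). On the same chromosome, miR159e 3'seq rose, at -6.42 ± 0.35 on mock and -5.59 ± 0.22 on linalool arrays (SD, n = 4 each) (0.83 ± 0.19 (SE), adjusted p = 0.00463).

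In families with few tested probes the calls were mostly falls. Both probes of miR530 on chromosome 4 fell without overlap. The 3'seq probe read -4.93, -3.98, -3.57 and -5.25 on mock and -7.15, -6.85, -6.84 and -6.89 on linalool replicates (-2.50 ± 0.35 (SE), adjusted p = 3.17e-04), and 5'seq fell by 2.26. Probes of miR528, a monocot miRNA known in rice to target ascorbate oxidase, fell for all 3 kinds, although with spike-in scaling 3'seq (0.07) and Mature (0.04) turned sign and did not pass. The largest fall was 5'seq on chromosome 3, with -5.32, -5.46, -5.09 and -6.01 against -7.52, -7.67, -7.38 and -8.30 (-2.24 ± 0.25 (SE), adjusted p = 8.79e-05). Both miR396d probes fell, by 1.46 and 1.07 on the log2 scale, the miRNA being known to target growth-regulating factors. Of 6 miR531 probes 2 fell, none rose and 4 did not pass, but with spike-in scaling neither fall passed and 2 other probes were higher. Of 4 miR171 probes 3 fell, with a median of -0.85 over the 4, and none passed with spike-in scaling.

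In the miR439 family none of the 12 tested probes passed, as in miR529 and miR419, which had 2 and 1 tested. With spike-in scaling those of miR529 and miR419 were higher. The miR439 median of -0.19 turned to 0.25 with quantile normalization, where 2 probes were higher, and to 0.45 with spike-in scaling, where 3 were. All 12 were lower under the background model fitted without aberrant spots, which draws dim probes lower by construction. Its values spread widely within the mock group: miR439b 3'seq on chromosome 10 read -2.82, -5.15, -7.27 and -6.49 on mock and -5.66, -5.52, -7.03 and -6.65 on linalool replicates. Mock replicate 1 was the highest mock array for 9 of the 12 probes. All of them carry 1 locus name in the array design. Among families on the array with no probe kept were miR172, miR390 and miR397, and of the 69 probes for miR395, a family known from sulphate shortage, 2 were kept.

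Probes of 1 hairpin seldom had calls in opposite directions. Of 72 hairpins with at least 2 tested probes, 55 had at least 1 lower and none higher, 5 had at least 1 higher and none lower, 2 had both and 10 had no call. Every tested probe fell in 38 and rose in 3, which were miR393b, miR399a and miR399c. As 67.3% of all precursor probes fell and 6.6% rose, such counts lean to falls even for unrelated probes. Agreement within hairpins beyond that was not tested. The median spread between probes of a hairpin was 0.46 for the difference and 1.83 for the level. By kind, 50 of 81 5'seq probes fell and 6 rose, 52 of 80 3'seq probes fell and 7 rose, and 40 of 50 Mature probes fell and 1 rose. Each probe had 2 spots per array, which differed by a median of 0.17 on the log2 scale. These probes share hairpins and families and are not independent of each other.

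Linalool replicate 1 read higher than the other linalool arrays for 173 of the 211 precursor probes, 82.0%, against 29.5% of all tested probes. Its 75th percentile, 1092, was the lowest of its group. Without this array 148 precursor probes fell and 12 rose, with a median of -0.93, where 37.5% of all tested probes fell and 26.9% rose. Its part in the levels was not tested further.

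Genes of the miRNA machinery did not move in 1 direction. The list held 20 recalled loci, of which 13 had a symbol borne out by the reference and 11 of these were tested: 4 rose and 5 fell, 2 did not pass, and their median was -0.20 (0.45 with spike-in scaling), against 28.4% and 38.9% of all probes. Over all 17 tested loci of the list 5 rose and 7 fell. The Dicer gene DCL2A rose (1.97 ± 0.23, adjusted p = 1.13e-04), as did AGO18, an Argonaute known from rice antiviral defence (1.36 ± 0.15, adjusted p = 1.01e-04). PNH1, an Argonaute of the AGO1 clade, fell (-2.55 ± 0.20, adjusted p = 1.37e-05), and so did AGO4B, which acts in DNA methylation (-1.29 ± 0.11, adjusted p = 2.58e-05). AGO1A, a miR168 target, and the other AGO1 genes were looked at after their values were seen. AGO1A fell (-0.57 ± 0.10, adjusted p = 0.00128), but with spike-in scaling its difference was 0.07 and did not pass. AGO1B also fell (-0.33), AGO1C did not pass (-0.20) and AGO1D rose (0.65).

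Known targets of these miRNAs moved in both directions. Of the 47 recalled loci 30 had a symbol borne out and 23 of these were tested: 2 rose, 14 fell and the other 7 missed the threshold. Over all 38 tested loci of the list 2 rose and 27 fell, with a median of -0.71. Of all tested probes 28.4% rose and 38.9% fell, and the difference in shares was not tested. The median of the 23 was -0.46, which turned to 0.18 with spike-in scaling, where 8 were higher and 6 lower. SPL2, a miR156 target, rose from -6.35 ± 0.28 (SD, n = 4) on mock arrays (3.32 ± 0.14, adjusted p = 8.28e-07). The miR156 targets SPL14, which shapes rice tillers and panicles (-1.85 ± 0.10, adjusted p = 2.64e-06), and SPL13 (-2.55 ± 0.23, adjusted p = 3.05e-05) fell. ARF12, a miR167 target, fell too (-1.04 ± 0.09, adjusted p = 2.03e-05). The other rise was SODCC2, a superoxide dismutase targeted by miR398 and named after its value was seen (0.99 ± 0.09, adjusted p = 3.36e-05). No relation between a precursor and its targets was tested.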

How the data were processed

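Blade RNA was labelled with 1 dye, Cy3, and hybridised to an Agilent rice 44k array, per the labels' protocols. Spots were quantified in Feature Extraction 10.7.3.1, per the file headers. The intensity used here is the deposited processed signal, which is linear and background-corrected but carries no scaling from array to array. The series matrix of the authors holds the same intensity values times 1 constant per array (1.37 to 2.51, all within 1%), and its column medians run from 298.9 to 339.8. How the constants were set is not stated in the labels.

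Each array's 75th percentile over non-control spots was subtracted from the log2 processed signal computed here from the deposited intensities. Spots marked as non-uniform (4 to 17 per array) were left out and the spots of a probe averaged. A probe counted as above background on an array when at least 50% of its spots were. It was tested when this held on at least 4 of 8 arrays. A limma fit (version 3.58.1, R 4.3.3, no covariate, 4 against 4 arrays, eBayes) gave two-sided p-values, Benjamini-Hochberg adjusted over 33116 probes. The script was tested on simulated data. Precision rests on 4 arrays per group.

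The members, families and lists were chosen with earlier results of these data known. Named are the 10 largest rises and falls without overlap, every probe without signal in 1 group and the 3 with the highest level. Members of conserved families and some, but not all, hairpins with more than 1 tested probe are named too. Of each list up to 4 genes with the smallest p are named, besides those marked as looked at after their values were seen. Locus symbols come from general knowledge and are printed where assembly ASM3414082v1 of RefSeq places the symbol on the same chromosome in locus order. Probe names give a chromosome but no start or end, so no coordinates are printed. Comparison with signal-matched probes was replaced by bins of level over all probes. Other scalings, filters, background models, an intensity trend and single arrays left out were run as alternatives.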

Additional observations from a re-analysis of the deposited data

Results flagged for a closer look

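Of 58 sets of 4 arrays examined (28 probes in both groups, and the array percentiles), 4 held an array far from the other 3 by Dixon's criterion, where chance flags about 1 in 20. For miR399b Mature, linalool replicate 1 read -4.79 and the others -7.03 to -6.92, and its difference of 0.96, which did not pass, was 0.41 without that array. For miR441a 3'seq, linalool replicate 1 read -2.52 against -3.08 to -3.00, still below every mock array. For miR159d 3'seq, linalool replicate 3 read -8.98 against -8.48 to -8.44, all of them not above background. The 75th percentile was 999.6 on mock replicate 4 and 849.6 to 870.9 on the other mock arrays.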

How the results depend on the processing

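The direction of the precursor probes depended on scaling more than on the arrays used. With quantile normalization 28 were higher and 117 lower (80.7% of calls lower, against 91.0% with the 75th percentile), with a median of -0.47. With spike-in scaling, from 6 control probes, 48 were higher, 83 lower (63.4% of calls) and 43 changed by at least 2-fold, with a median of -0.18, and over all probes 23.0% of calls were lower in place of 57.8%. Of the 156 calls 97 were kept there and 17 turned sign. The planned normexp background model called 9403 of all probes, where 14 precursor probes passed, 14 lower and 0 higher (limma; also 14 and 0 at unadjusted p below 0.05), 11 by at least 2-fold, with a median of -0.12. On linalool replicate 1 it had estimated a mean background of -543.8, with 5 spots whose local background lay more than 50 above their signal. Fitted without such spots (-4.26), an alternative chosen after seeing the data, it gave 185 lower and 0 higher (also 0 at unadjusted p below 0.05), 27 by at least 2-fold. Of all tested probes 47.9% were lower and 22.9% higher in that fit. There the signs turned for miR156c 5'seq (-0.51), miR159e 3'seq (-0.29), miR169a 5'seq (-0.058), miR393b 3'seq (-0.060), miR398b 5'seq (-0.012), miR399a 3'seq (-0.25) and Mature (-0.45), miR399b Mature (-0.44), miR399i 5'seq (-0.018), and miR399k 3'seq (-0.31) and 5'seq (-0.28). The offset, larger than the median signal of these probes, shrinks their signal differences by construction. It is added before scaling, so without the aberrant spots their log2 differences are drawn toward the array difference in the 75th percentile. The median in that fit was -0.67 for the precursor probes and -0.24 for all tested probes. Whether the turned signs go beyond this scaling was not tested. With no filter on signal 340 of 510 passed, 326 lower, and 159 by at least 2-fold, where 43.1% of all probes were lower and 22.2% higher. With signal required on all 8 arrays 3 were higher. The sign of miR419 5'seq turned with median scaling (0.013) and spike-in scaling (0.52), and it passed as higher with the latter. Leaving out 1 array gave 12 to 16 higher, 131 to 148 lower, 144 to 160 passing, 93 to 107 by at least 2-fold, medians of -0.93 to -0.76 and 20500 to 22443 of all probes passing. Same-numbered mock and linalool arrays correlated at -0.003, 0.17, 0.11 and -0.11 in their deviations, and no mock array correlated best with the linalool array of its own number, so the numbers were not taken as pairs. The replicate block gave 14 higher and 141 lower, against 26.8% and 37.4% of all tested probes, and passed miR399b Mature (adjusted p = 0.0458). Requiring both spots above background, also chosen after seeing the data, left 187 probes, 13 higher and 127 lower, against 28.4% and 38.9% of all such probes. Signals near background limit what these probes can show.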
